A study of Homo sapiens with 6 samples.

Results

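The genes that drive and carry out mitosis were followed in MDA-MB-231, a long-established cell line from a human triple-negative breast cancer. The list held 48 genes, picked by their known part in the G2/M transition and in mitosis (mitotic kinases, spindle and kinetochore proteins, and activators of the anaphase-promoting complex). All 48 were found among the 61552 gene identifiers of the count tables, and all were among the 17084 genes that passed the expression filter. One group of 3 libraries came from cells kept for 24 h with 10 μM VNLG-152R, a retinamide studied for loss of the MNK kinases, and the other 3 came from cells kept for 24 h with its vehicle, DMSO. Both groups were the same line with no other agent, allele or time point, so the findings are those of a single line at a single dose. The study speaks of triplicates without saying whether the cultures were independent, so the p-values measure the spread between these libraries, which may be technical.

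A cell enters mitosis when the kinase CDK1, bound to cyclin B, is freed of its inhibitory phosphates by the CDC25 phosphatases. PLK1 and the Aurora kinases then mature the centrosomes and build the spindle, kinetochores attach chromosomes to microtubules, and the spindle assembly checkpoint holds the anaphase-promoting complex back until every chromosome is attached. CDC20 activates that complex, which marks securin and cyclin B for destruction so that sister chromatids part. Transcripts of most of these genes are low in G1 and high in G2 and mitosis, so in RNA pooled from many cells their level depends both on how many cells are in those phases and on how much each cell makes. In these bulk libraries fewer cells in G2 and mitosis cannot be told apart from less RNA per cell.

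Many promoters of this class carry a CHR (cell cycle genes homology region), which the LIN54 subunit of the MuvB complex binds, near CCAAT boxes bound by NF-Y. Promoter sequence was matched for 41 of the 48 genes, from 250 bases before to 50 bases after each RefSeq start (GRCh38.p14). The letters TTTGAA or TTCGAA, read on both strands, were found for 34 of the 41 genes (82.9%), against 5336 of 27305 genes in the whole promoter table (19.5%). CCAAT on either strand was found for 31 (75.6%), against 39.7% of all genes. The E2F-like letters TTTGGCGC or TTTCGCGC were found for 3 (7.32%), against 1.4% of all genes. A match is a string of letters and not a measured binding site. The CHR and CCAAT strings can share 1 base, as in CDCA8. The sequences below are those of CDC20 and ASPM, the genes that passed the test in opposite directions, of MKI67, and of the 30 bases around the CHR of PLK1, CCNB2 and CDCA8. Capitals mark CHR and CCAAT letters, and all are written 5′ to 3′ on the strand of the gene.
CDC20 (chr1:43358861-43358954, plus strand): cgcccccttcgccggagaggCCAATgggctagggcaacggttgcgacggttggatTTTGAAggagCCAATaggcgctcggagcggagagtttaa
ASPM (chr1:197146695-197146789, minus strand): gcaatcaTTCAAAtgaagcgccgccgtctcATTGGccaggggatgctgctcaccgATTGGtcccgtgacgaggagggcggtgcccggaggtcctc
MKI67 (chr10:128126424-128126543, minus strand): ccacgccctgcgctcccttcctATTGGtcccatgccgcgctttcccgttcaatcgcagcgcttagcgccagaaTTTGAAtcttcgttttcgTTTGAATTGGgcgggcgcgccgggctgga
PLK1 (chr16:23678848-23678877, plus strand): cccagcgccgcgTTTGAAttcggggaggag
CCNB2 (chr15:59105105-59105134, plus strand): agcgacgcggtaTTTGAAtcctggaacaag
CDCA8 (chr1:37692481-37692510, plus strand): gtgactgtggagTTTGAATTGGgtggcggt
The printed CHR of CDC20 began 65 bases before the start and lay between a pair of CCAAT boxes. Its window held a further CHR match on the opposite strand, 178 bases before the start and outside the printed sequence. In ASPM the CHR stood on the opposite strand, 113 bases before the start. The CHR letters of PLK1, CCNB2 and CDCA8 lay upstream of the RefSeq start but within an exon of the GENCODE release 29 annotation. CDC20 and ASPM, which moved in opposite directions, both had CHR and CCAAT letters. Of the genes with promoter sequence, KIF20A, CCNB1, AURKB, PTTG1, CENPE, KIF2C and CKAP2 had no CHR letters in this window. Whether these letters go with the direction of change was not tested.

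Counts assigned to genes were 69923839 to 82151816 per library with VNLG-152R and 60122936 to 68583224 with vehicle, so each treated library was deeper than each control. Levels are given as CPM (counts scaled to library size) after TMM normalization, and groups were compared by the quasi-likelihood test of edgeR with Benjamini-Hochberg adjustment over all 17084 genes, at a threshold of 0.05. The 6 markers listed for the line, VIM, CD44, AXL, MSN, KRT18 and EGFR, were at 240 CPM or more in every library, and VIM fell (log2 fold change -0.39, edgeR adjusted p = 0.0472). ESR1 was at or near 0, and PGR and CDH1 were below 1 CPM, although ERBB2 was at 84.3 to 118 CPM with VNLG-152R and 86.7 to 92.1 CPM with vehicle. Of the same list of markers low in such cells, EPCAM was detected at 11.6 ± 0.542 CPM with VNLG-152R and 13.4 ± 2.03 CPM with vehicle (SD, n = 3 each), and GATA3 at 4.04 to 5.16 CPM with VNLG-152R and 5.04 to 5.66 CPM with vehicle. Of the 7 leukocyte and endothelial markers, 1, PECAM1, passed the expression filter (22.8 to 26.5 CPM with VNLG-152R and 21.3 to 24.5 CPM with vehicle), and PTPRC did not exceed 0.0329 CPM in any library.

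Mitotic transcripts changed little after 24 h of VNLG-152R, and most were slightly lower. CDC20, the activator of the anaphase-promoting complex, fell, and ASPM, a spindle pole protein, rose. The other 46 genes did not pass the test. With VNLG-152R, 1 of 48 genes was called lower, against 1.43% of all tested genes, and 1 of 48 was called higher, against 3.76% of all tested genes. Of the 48 log2 fold changes, 39 were negative (81.2%, against 50.4% of all tested genes), and their median was -0.13, against 0.00 for all tested genes. They spanned -0.34 to 0.38. An unadjusted p under 0.05 was reached by 15 lower genes, against 9.76% of all tested genes, and by 3 higher genes (ASPM, CENPF and MKI67), against 12.8%.

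The intervals of nearly all of the list were narrow. They come from the main test, without a replicate block, and each is for a single gene. Like the p-values, they measure the spread between these libraries, which may be technical. For 44 of 48 genes the 95% interval of the log2 fold change lay inside a 1.5-fold change either way, and for 47 it lay inside a 2-fold change. The genes with wider intervals were KIF15, HMMR, NUSAP1 and PRC1, and KIF15 alone reached beyond 2-fold. In 21 genes all 3 VNLG-152R libraries lay below all 3 vehicle libraries, against 13.4% of all tested genes. In 3 genes (ASPM, CENPF and KIF14) they all lay above, against 15.1% of all tested genes.

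**Figure D1:**
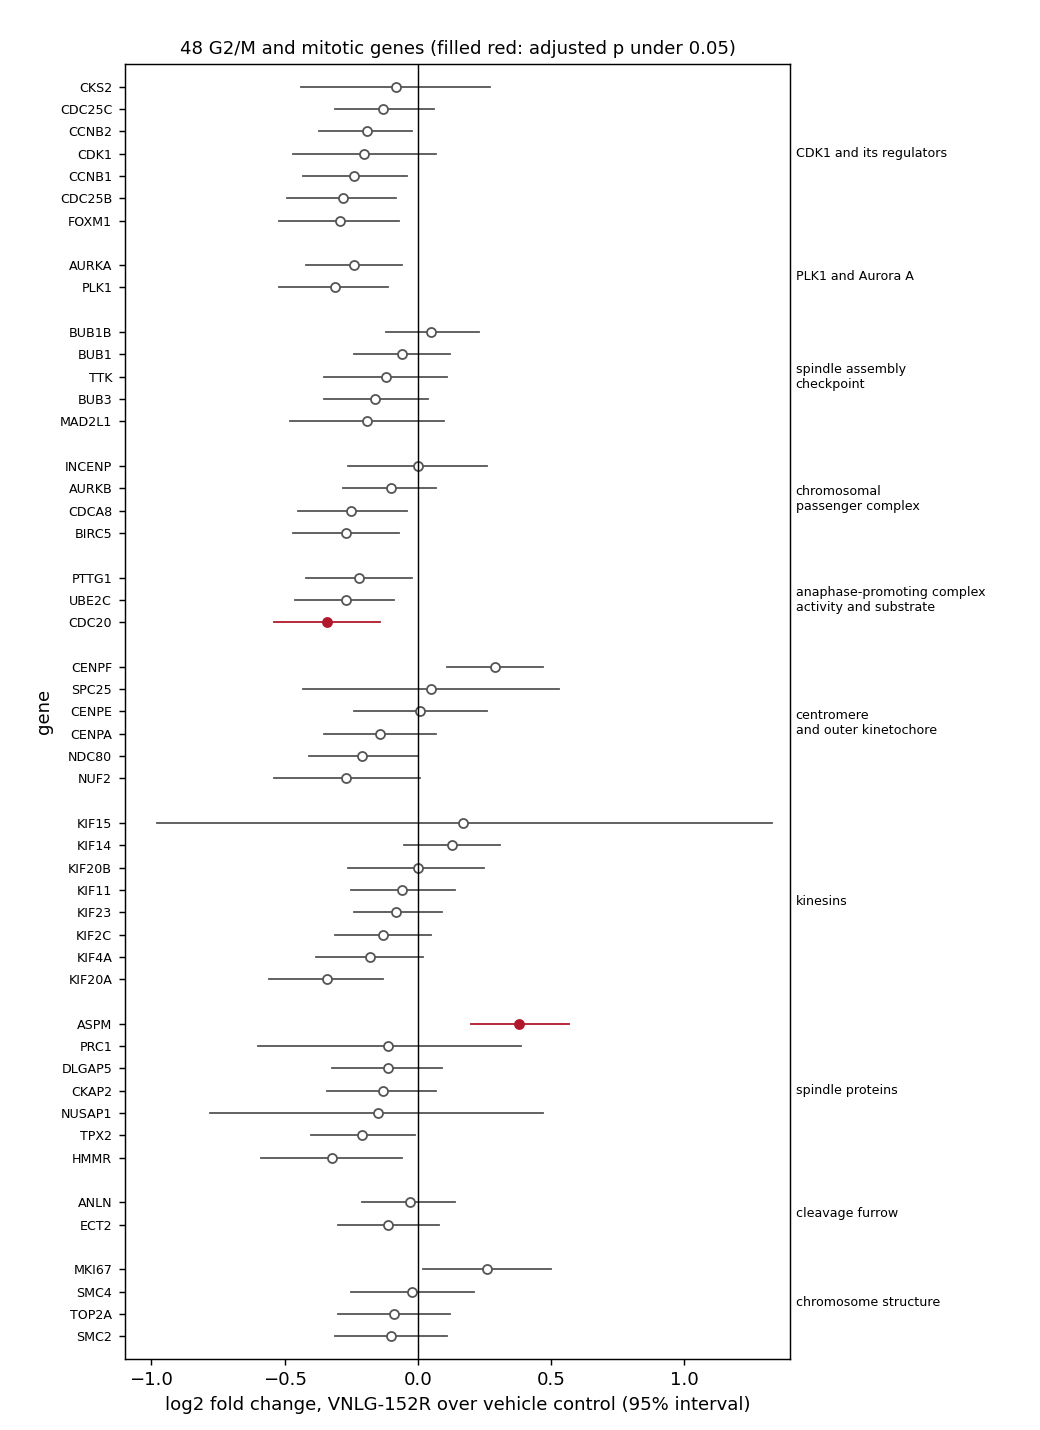
Log2 fold change of each of the 48 genes, VNLG-152R over vehicle control, with its 95% interval (horizontal line), grouped by role from top to bottom. Filled red points are the genes with an adjusted p under 0.05, CDC20 at -0.34 and ASPM at 0.38, and 39 of the 48 points lie left of the zero line.

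The anaphase-promoting complex group held CDC20, UBE2C and PTTG1, and in all 3 genes the treated libraries lay below the controls. CDC20 (ENSG00000117399, chromosome 1 from 43358955 to 43363203, plus strand) had 260, 214 and 240 CPM with VNLG-152R, against 292, 297 and 314 CPM with vehicle. Its mean was 238 ± 23.1 CPM with VNLG-152R and 301 ± 11.7 CPM with vehicle (SD, n = 3 each), a fold of 0.79. The log2 fold change was -0.34 (standard error 0.09, 95% interval -0.54 to -0.14, edgeR adjusted p = 0.0497), just inside the threshold. UBE2C, the ubiquitin-conjugating enzyme that starts the chains made by the complex, had 173, 154 and 170 CPM with VNLG-152R, against 193, 195 and 212 CPM with vehicle. Its log2 fold change of -0.27 did not pass (edgeR adjusted p = 0.0825). PTTG1, which is securin, the substrate whose loss frees separase, had a log2 fold change of -0.22 (edgeR adjusted p = 0.173). When each library was left out in turn, the CDC20 value stayed between -0.41 and -0.27, and it passed only without VNLG-152R replicate 1. Its adjusted p was 0.0937, 0.107 and 0.207 without vehicle replicate 1, 2 and 3, and 0.117 and 0.133 without VNLG-152R replicate 2 and 3.

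CDK1 and its regulators did not pass the test, and all 7 had negative log2 fold changes with a median of -0.20. CCNB1, the main mitotic cyclin, had 235, 270 and 266 CPM with VNLG-152R, against 326, 290 and 293 CPM with vehicle (log2 fold change -0.24, edgeR adjusted p = 0.14). The treated libraries were all below the controls, by a margin smaller than the spread within either group. CDK1, the kinase itself, had 84.1, 115 and 111 CPM with VNLG-152R, against 137, 109 and 111 CPM with vehicle. Its groups overlapped, and the lowest and highest values were both in replicate 1 (log2 fold change -0.20, standard error 0.12, edgeR adjusted p = 0.359). FOXM1, a transcription factor that activates G2/M genes, had 192, 151 and 193 CPM with VNLG-152R, against 204, 224 and 229 CPM with vehicle. The groups of FOXM1 did not overlap, and its log2 fold change was -0.29 (edgeR adjusted p = 0.121). CDC25B, a phosphatase that starts CDK1 activation, had 269, 212 and 246 CPM with VNLG-152R, against 293, 285 and 308 CPM with vehicle (log2 fold change -0.28, edgeR adjusted p = 0.106). CCNB2, the second B-type cyclin, had a log2 fold change of -0.19, and CDC25C, the related phosphatase, of -0.13. CKS2, a small subunit bound by CDK1, was at 54.3 CPM in VNLG-152R replicate 1 and between 78.6 and 98.8 CPM in the other libraries. Its log2 fold change of -0.08 became 0.13 without that library.

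PLK1 and Aurora A were lower in all treated libraries than in all control libraries, without passing the test. PLK1, the polo-like kinase of centrosome maturation, had 144, 114 and 130 CPM with VNLG-152R, against 158, 156 and 170 CPM with vehicle. Its log2 fold change was -0.31 (95% interval -0.52 to -0.11, edgeR adjusted p = 0.077). AURKA, which activates PLK1 and acts at spindle poles, had 173, 172 and 192 CPM with VNLG-152R, against 222, 203 and 208 CPM with vehicle (log2 fold change -0.24, edgeR adjusted p = 0.117). Antisense genes share 12.5% of the exon bases of PLK1 and 15.9% of those of FOXM1 in GENCODE release 29. The largest such share of the list is 25.6%, in SMC4, and other members have smaller ones. No source used here says whether strand was used in counting.

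Within the chromosomal passenger complex the values were unequal. BIRC5 (survivin), which brings the complex to the centromere, had 107.47, 129.61 and 121.98 CPM with VNLG-152R, against 152.05, 135.46 and 144.85 CPM with vehicle (log2 fold change -0.27, edgeR adjusted p = 0.107). CDCA8 (borealin), its partner there, had a log2 fold change of -0.25 (edgeR adjusted p = 0.147). AURKB, the kinase of the complex, had 89.8, 89.4 and 81.7 CPM with VNLG-152R, against 94.4, 89.9 and 96.0 CPM with vehicle. Its log2 fold change of -0.10 (95% interval -0.28 to 0.07, edgeR adjusted p = 0.475) left a margin between the groups of under 1 CPM. INCENP, the scaffold, had a log2 fold change of 0.00. The differences between these 4 genes were not tested.

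The spindle assembly checkpoint had a median log2 fold change of -0.12, and none of its 5 genes had an unadjusted p under 0.05. BUB3, a WD-repeat adaptor, had 232, 262 and 261 CPM with VNLG-152R, against 303, 269 and 269 CPM with vehicle (log2 fold change -0.16, edgeR adjusted p = 0.325), and was the only gene of the 5 whose groups did not overlap. MAD2L1 (MAD2, which binds CDC20) had a log2 fold change of -0.19, TTK (MPS1, the kinase that starts the signal) of -0.12, BUB1 of -0.06 and BUB1B (BUBR1) of 0.05.

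At the centromere and the outer kinetochore the genes did not share a direction, 3 being negative and 3 not. CENPF, a large protein of the kinetochore corona, had 456, 428 and 416 CPM with VNLG-152R, against 351, 371 and 341 CPM with vehicle. All treated libraries were above all controls, and its log2 fold change was 0.29 (95% interval 0.11 to 0.47, edgeR adjusted p = 0.064). NDC80 and NUF2, partners in the complex that grips microtubules, had log2 fold changes of -0.21 and -0.27, and NUF2 overlapped between groups. SPC25, of the same complex, was measured at 67 to 135 counts with VNLG-152R and 72 to 87 counts with vehicle, and its log2 fold change was 0.05 with a 95% interval of -0.43 to 0.53. CENPA, the histone H3 variant of centromeres, had a log2 fold change of -0.14, and CENPE, a kinesin that moves chromosomes to the spindle equator, of 0.01.

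The 8 kinesins had a median log2 fold change of -0.07. KIF20A, needed for cytokinesis, had 186, 153 and 186 CPM with VNLG-152R, against 201, 226 and 238 CPM with vehicle. Its log2 fold change of -0.34 equalled that of CDC20, with no overlap between groups, but did not pass (95% interval -0.56 to -0.13, edgeR adjusted p = 0.0685). KIF4A, a chromosome-bound kinesin, had a log2 fold change of -0.18, KIF2C (MCAK, which takes microtubules apart) of -0.13, KIF23 (the central spindle kinesin MKLP1) of -0.08 and KIF11 (Eg5, which pushes spindle poles apart) of -0.06. KIF20B was at 0.00. KIF14, a cytokinesis kinesin, had 94.7, 95.7 and 94.0 CPM with VNLG-152R, against 93.1, 86.8 and 79.9 CPM with vehicle (log2 fold change 0.13, edgeR adjusted p = 0.376). KIF15, which assists KIF11, had 7.27, 1.70 and 7.43 CPM with VNLG-152R, against 9.17, 1.64 and 3.76 CPM with vehicle. Its coefficient of variation was 59.7% with VNLG-152R and 79.9% with vehicle, against medians over the list of 7.75% with VNLG-152R and 7.57% with vehicle, and no direction can be read from its log2 fold change of 0.17 (standard error 0.53).

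**Figure D2:**
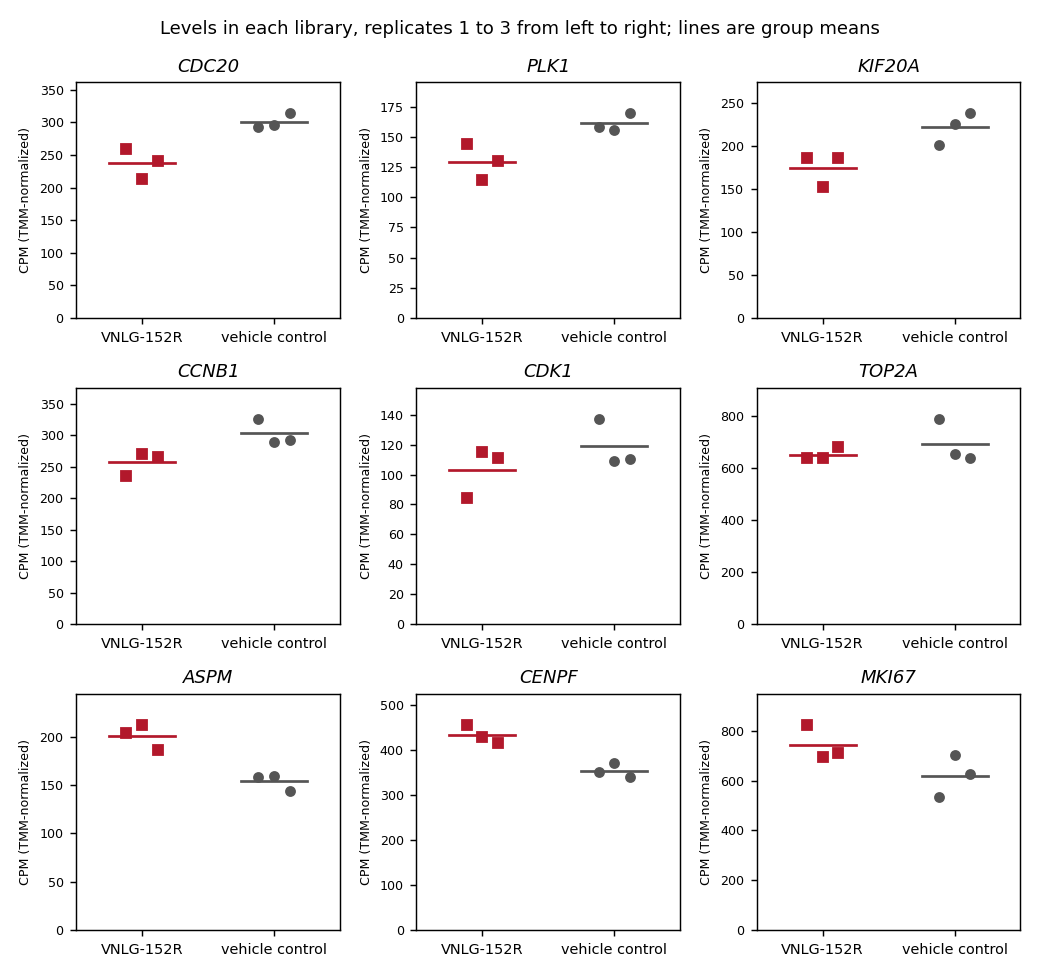
Levels of 9 of the genes in CPM, a panel per gene with an axis from 0, VNLG-152R libraries as red squares on the left and vehicle control libraries as grey circles on the right, with lines at group means. CDC20, PLK1, KIF20A and CCNB1 lie lower in every treated library, CDK1, TOP2A and MKI67 overlap, and ASPM and CENPF lie higher in every treated library.

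Among spindle proteins ASPM rose while 6 others had negative log2 fold changes that did not pass. ASPM (ENSG00000066279, chromosome 1 from 197084128 to 197146694, minus strand) keeps spindle poles focused, and its loss causes primary microcephaly. It had 205, 213 and 187 CPM with VNLG-152R, against 159, 160 and 144 CPM with vehicle. The mean was 201 ± 13.1 CPM with VNLG-152R and 154 ± 8.87 CPM with vehicle (SD, n = 3 each), a fold of 1.31. The log2 fold change was 0.38 (standard error 0.09, 95% interval 0.20 to 0.57, edgeR adjusted p = 0.0244). It stayed between 0.34 and 0.44 when each library was left out, but passed only without VNLG-152R replicate 1 or replicate 3. The adjusted p was 0.0614 without VNLG-152R replicate 2, and 0.0536, 0.0578 and 0.149 without vehicle replicate 1, 2 and 3.

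HMMR, a microtubule-bound partner of TPX2, had 8.15, 10.0 and 10.3 CPM with VNLG-152R, against 13.6, 10.9 and 11.1 CPM with vehicle. These levels came from 551 to 853 counts with VNLG-152R and 659 to 828 counts with vehicle. The log2 fold change of HMMR was -0.32 and did not pass (95% interval -0.59 to -0.06, edgeR adjusted p = 0.145). TPX2, the activator of Aurora A, had 511, 442 and 503 CPM with VNLG-152R, against 587, 549 and 543 CPM with vehicle (log2 fold change -0.21, edgeR adjusted p = 0.192). DLGAP5, which stabilizes kinetochore microtubules, had a log2 fold change of -0.11, and CKAP2, a microtubule-associated protein, of -0.13. NUSAP1 and PRC1 had log2 fold changes of -0.15 and -0.11 from 19 to 35 and 65 to 77 counts with VNLG-152R, against 24 to 25 and 52 to 72 counts with vehicle. In GENCODE release 29, 62.2% of the exon bases of NUSAP1 and 57.6% of those of PRC1 also belong to a same-strand gene. Read pairs marked ambiguous were left out of the gene counts, so pairs in the shared exons may be missing from both levels. How many were lost was not tested, and both levels are uncertain. The gene that shares exons with PRC1, ENSG00000284946, had 208, 205 and 228 counts with VNLG-152R, against 149, 122 and 150 counts with vehicle, and the one that shares exons with NUSAP1, ENSG00000285920, had 0 counts in all libraries.

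No gene of chromosome structure or of the cleavage furrow passed the test, and MKI67 stood apart from the other 5 with a positive value. MKI67, which coats mitotic chromosomes and is the source of the Ki-67 proliferation marker, had 823, 693 and 712 CPM with VNLG-152R, against 532, 701 and 626 CPM with vehicle. The groups overlapped at VNLG-152R replicate 2, and the log2 fold change was 0.26 (95% interval 0.02 to 0.50, edgeR adjusted p = 0.186). TOP2A, the topoisomerase that disentangles sister chromatids, had 637, 637 and 681 CPM with VNLG-152R, against 789, 655 and 637 CPM with vehicle (log2 fold change -0.09, 95% interval -0.30 to 0.12, edgeR adjusted p = 0.627). The condensin subunits SMC2 and SMC4 had log2 fold changes of -0.10 and -0.02, and the furrow proteins ECT2, an activator of RhoA, and ANLN, which links actin and septins, of -0.11 and -0.03. In total, 12 of the 48 genes had log2 fold changes within 0.1 of no change.

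Per kilobase of exon the highest levels of the list were those of TPX2 (135.0 CPM per kilobase with VNLG-152R and 155.0 with vehicle), UBE2C (129.0 and 156.0 in the same order), CKS2 (128.0 and 135.0) and CDC20 (117.0 and 148.0). NUSAP1 was lowest as counted, with 0.122 CPM per kilobase with VNLG-152R and 0.136 with vehicle. Since 62.2% of its exon bases also belong to a same-strand gene, its level and this rank are uncertain. Each of these first 4 genes had at least 3674 counts in every library, so counting error was small beside the spread between libraries.

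Direction was related to gene length. The 3 genes of the list with the longest exon length, MKI67 (12807 bases), CENPF (11690 bases) and ASPM (10887 bases), were those with an unadjusted p under 0.05 in the upward direction. Across the 48 genes Spearman's rho between log2 fold change and exon length was 0.54, and across 16731 tested genes it was 0.21. Genes are not independent replicates, and all of them share the same 6 libraries. The longer 24 genes had a median log2 fold change of -0.07 with 17 negative, and the shorter 24 a median of -0.21 with 22 negative. Over all tested genes split at the same length the medians were 0.04 and -0.06. After each library's length trend was removed, rho over all tested genes was -0.01, the list's median was -0.11, and the medians of the longer and the shorter genes were -0.09 and -0.17. ASPM then had a log2 fold change of 0.27 (edgeR adjusted p = 0.0934) and CDC20 of -0.28 (edgeR adjusted p = 0.117), so neither passed. CENPF was at 0.17 and MKI67 at 0.12. The part of the length trend in these results was otherwise not tested.

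**Figure D3:**
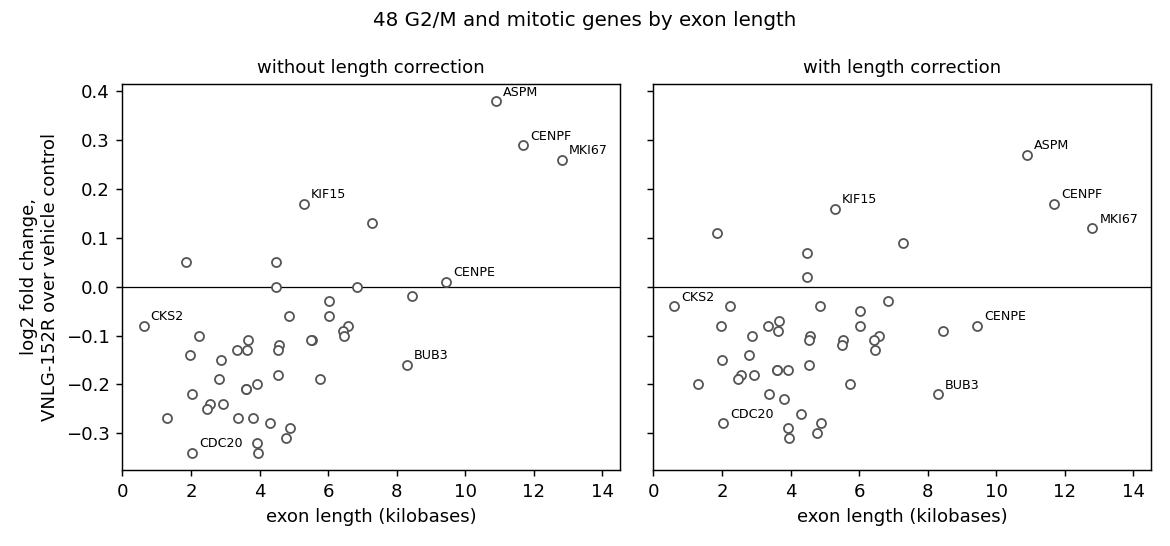
Log2 fold change of the 48 genes, VNLG-152R over vehicle control (vertical axis), against exon length in kilobases (horizontal axis), a circle per gene, without (left) and with (right) correction of each library's length trend. ASPM, CENPF and MKI67 lie at the upper right of both panels, at 0.38, 0.29 and 0.26 without and 0.27, 0.17 and 0.12 with the correction.

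The median of the list was lower in each treated library than in each control. Relative to the vehicle mean, the median log2 deviation of the 48 genes was -0.16, -0.12 and -0.10 in VNLG-152R replicates 1 to 3, against 0.08, -0.05 and -0.04 in vehicle replicates 1 to 3. Summed over the list, the levels were 7769, 7477 and 7883 CPM with VNLG-152R, against 8467, 8063 and 8041 CPM with vehicle. Vehicle replicate 1 was the highest control in 31 of 48 genes (64.6%, against 38.7% of all tested genes). Without that library the list's median was -0.10, and over all 6 omissions it ranged from -0.17 to -0.08. Of the treated libraries, replicate 2 was lowest in 23 genes (47.9%, against 36.8% of all tested genes), replicate 1 in 20 (41.7%, against 36.8%) and replicate 3 in 5 (10.4%, against 26.3%). The libraries thus shared a direction in the median while differing in which genes were lowest. VNLG-152R replicate 2, low for CDC20, PLK1, KIF20A and FOXM1, also had the largest share of read pairs outside annotated genes (5.05%, against 3.36% and 3.52% in the other treated libraries and 2.63% to 3.17% with vehicle). The part of that difference in the results was not tested.

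Further mitotic genes and genes of the anaphase-promoting complex also had mostly negative values, and cohesin genes did not. Of 80 further mitotic genes 78 were tested, and 2 fell, against 1.43% of all tested genes, and none rose. Their median was -0.18, and 65 of their log2 fold changes were negative (83.3%, against 50.4% of all tested genes). CDCA5 (sororin, which protects cohesion) had 108, 89.5 and 106 CPM with VNLG-152R, against 138, 123 and 134 CPM with vehicle (log2 fold change -0.38, edgeR adjusted p = 0.0363). CENPL, of the inner kinetochore, had 18.6, 21.9 and 23.4 CPM with VNLG-152R, against 29.3, 26.5 and 27.8 CPM with vehicle (log2 fold change -0.39, edgeR adjusted p = 0.0424). The list of the anaphase-promoting complex held 16 genes, its core subunits together with its activator FZR1 and its inhibitor FBXO5. It had no call and a median of -0.11. In it 4 genes had an unadjusted p under 0.05, all lower, against 9.76% of all tested genes. These were ANAPC7, ANAPC13, ANAPC15 and the inhibitor FBXO5, which had the lowest log2 fold change of the list (-0.29). The 11 cohesin genes had no call and a median of -0.01, with 6 negative and 1 higher gene at that unadjusted p. DESeq2, which called 1459 genes in all against 887 in the main test, called 8 further mitotic genes lower and 1 cohesin gene higher.

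The DREAM, MuvB and RB system switches G2/M promoters between repression and activation. Among 16 of its genes 1 fell, against 1.43% of all tested genes, and none rose, against 3.76%. DESeq2, which called 1459 genes in all against 887 in the main test, called 3 lower. The gene that fell in the main test was MYBL2 (B-MYB, the activator that joins MuvB). It had 133, 106 and 123 CPM with VNLG-152R, against 160, 162 and 166 CPM with vehicle (log2 fold change -0.43, edgeR adjusted p = 0.0224). LIN54, the subunit that binds the CHR letters shown above, had a log2 fold change of -0.01. The list's median was -0.14. At an unadjusted edgeR p under 0.05, 3 genes were lower (MYBL2, CDKN1A and TFDP1), against 9.76% of all tested genes. At the same level 2 were higher, against 12.8%. These were RBL2 (log2 fold change 0.25, edgeR adjusted p = 0.102) and TFDP2 (log2 fold change 0.22, edgeR adjusted p = 0.134). CDKN1A (p21, an inhibitor of cyclin-dependent kinases) had 211, 163 and 199 CPM with VNLG-152R, against 241, 259 and 236 CPM with vehicle (log2 fold change -0.36, edgeR adjusted p = 0.0616).

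Genes of G1/S and DNA replication held more calls than the mitotic lists. Of 49 tested, 10 fell and none rose, against 1.43% of all tested genes called lower, 48 had negative log2 fold changes, and the median was -0.25. The 10 calls became 22 with DESeq2, 15 with no expression filter and 7 with length correction. In the same order, calls over all genes were 1459, 1539 and 616, against 887 in the main test. CDC25A, the phosphatase of S phase entry, had 32.5, 28.3 and 32.6 CPM with VNLG-152R, against 44.8, 39.6 and 42.8 CPM with vehicle (log2 fold change -0.45, edgeR adjusted p = 0.0160). RRM2, the small subunit of ribonucleotide reductase, had 174, 171 and 182 CPM with VNLG-152R, against 246, 214 and 221 CPM with vehicle (log2 fold change -0.37, edgeR adjusted p = 0.0272). TIPIN, of the replication fork, and E2F8, a repressor of the E2F family, had log2 fold changes of -0.45 (edgeR adjusted p = 0.0231) and -0.39 (edgeR adjusted p = 0.0311). Whether these genes fell by more than the mitotic ones was not tested. These calls changed when single libraries were left out. The 10 G1/S calls became 1, 5 and 0 without vehicle replicate 1, 2 and 3. They became 10, 1 and 2 without VNLG-152R replicate 1, 2 and 3. Calls over all tested genes changed as well, and were fewest without vehicle replicate 3. Whether the G1/S list lost more calls than all genes did was not tested. No further mitotic gene and no DREAM, MuvB and RB gene was called lower in any omission but that of VNLG-152R replicate 1, which left 6 and 2 such genes lower.

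**Figure D4:**
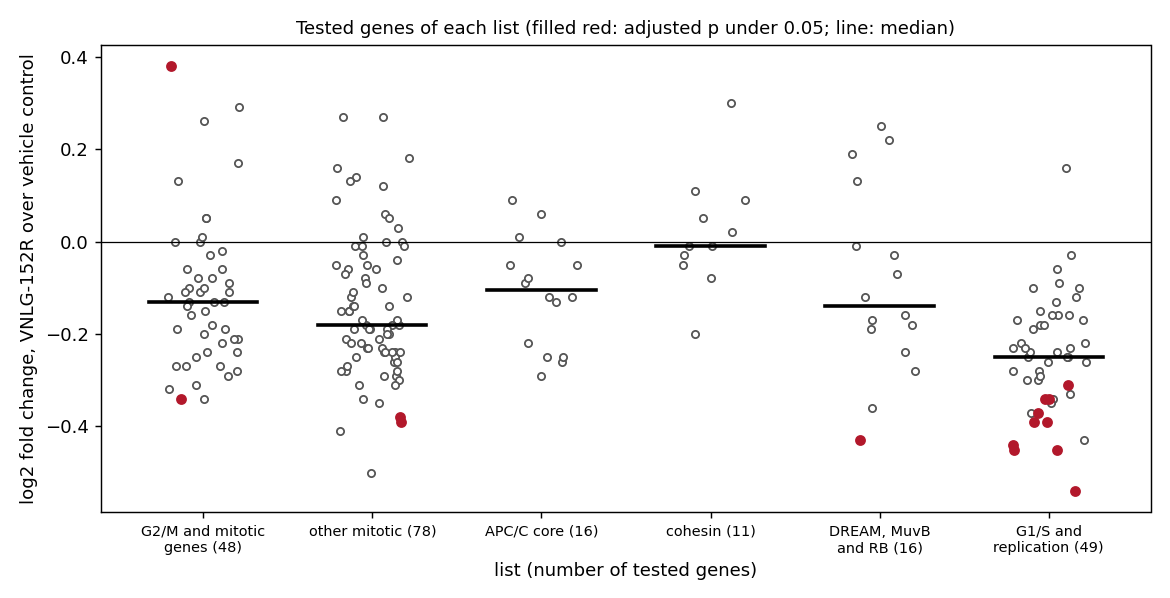
Log2 fold change of every tested gene of each list, VNLG-152R over vehicle control, with a circle per gene, red where the adjusted p was under 0.05, and a line at the list's median. The medians run from -0.25 for G1/S and replication genes to -0.01 for cohesin genes, and the 48 G2/M and mitotic genes lie at -0.13 with a red point on either side of zero.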

How the data were processed

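The authors deposited raw read counts per Ensembl gene for 6 polyA, strand-specific, paired-end libraries. Their processing notes name HISAT, HTSeq, DESeq and GRCh38, and no source used here names the annotation release or the strand setting. Read pairs outside genes (2.63% to 5.05%), ambiguous (4.81% to 5.16%) or not unique (7.81% to 8.12%) were left out of totals. Groups came from the treatment labels. In R 4.3.3, counts were TMM-normalized, filtered with filterByExpr and tested by quasi-likelihood in edgeR 4.0.16 (17084 genes, biological coefficient of variation 0.105, Benjamini-Hochberg threshold 0.05), which was tested on simulated data. The standard error is the size of the log2 fold change over the square root of F. With 3 against 3 libraries an exact permutation test cannot go below 0.10, so none is given. Exon lengths, coordinates and overlaps are from GENCODE release 29 (GRCh38), and promoters from RefSeq (GRCh38.p14).

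The members, the lists, written from memory, and the tests were chosen with earlier results of these data known. Every member is named. Values per library are given for CDK1, CCNB1, PLK1, AURKA, AURKB, CDC20, TOP2A, MKI67, FOXM1 and BIRC5, for members past the threshold and for the 4 highest and the 4 lowest log2 fold changes. From each other list, up to 4 genes of smallest p in each direction are named. UBE2C, CDC25B, BUB3, TPX2, KIF14, CKS2, LIN54, CDKN1A, TFDP1, RBL2 and TFDP2 are given for their values or role, outside this rule. Other settings were RLE or plain library size scaling, no filter or a filter at a mean of 1 CPM, DESeq2 1.42.0, the replicate number as a block, removal of each library's exon length trend (lowess, span 0.3), calls at an unadjusted p under 0.01 and a log2 fold change of 1 or more either way, and leaving out each library. PCR duplicates were not separable, so depth covers counting error only.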

Additional observations from a re-analysis of the deposited data

Results flagged for a closer look

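The share of read pairs that fell outside annotated genes, which were left out of the gene counts, averaged 3.98% over the VNLG-152R libraries and 2.95% over the vehicle libraries. It was higher in each of the 3 VNLG-152R libraries than in each of the 3 vehicle libraries.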

How the results depend on the processing

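The test called 887 genes in all, with 1 of the 48 mitotic genes higher and 1 lower. RLE size factors gave 888, 1 and 1, library size only 833, 2 and 1, no filter 1539, 1 and 3, a mean of at least 1 CPM 901, 2 and 1, and DESeq2 1459, 2 and 6, where CENPF joined the higher and PLK1, KIF20A, UBE2C, CDC25B and BIRC5 the lower genes. Length correction gave 616, 0 and 0, and calls at an unadjusted p under 0.01 and a log2 fold change of 1 or more either way gave 215, 0 and 0. Leaving out 1 library gave 264 to 948 genes in all, 0 to 1 higher and 0 to 3 lower mitotic genes, with the fewest in all without vehicle replicate 3. The median of the 48 genes stayed between -0.17 and -0.08 throughout. No source used here says whether same-numbered libraries of the groups were handled together. Their deviations from the group means had correlations of -0.19, -0.17 and -0.11, which cannot settle this with so few libraries. With the replicate number as a block the counts were 397, 0 and 0, and with length correction as well 261, 0 and 0. The 10 lower G1/S and replication genes became 1 with the block and 0 with both. CENPE, at 0.01, was at -0.08 with length correction and at -0.06 with the block added. Leaving out 1 library turned the sign of genes near 0 or of low level, over ranges of -0.07 to 0.18 for CENPE, -0.12 to 0.03 for KIF11, -0.28 to 0.02 for PRC1, -0.15 to 0.01 for TOP2A, -0.09 to 0.12 for SMC4, -0.24 to 1.01 for KIF15, -0.12 to 0.22 for SPC25 and -0.28 to 0.13 for CKS2. INCENP and KIF20B, at 0.00 in the main test, also fell on either side of 0, over -0.13 to 0.09 and -0.08 to 0.17. The cause was not tested. With 4 residual degrees of freedom, the spread between libraries limits these calls more than depth.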

Other observations

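KIF15 was the gene of the list with the widest spread, and its low values were in replicate 2 of both groups. It had 492, 130 and 615 counts with VNLG-152R, against 558, 99 and 256 counts with vehicle.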
